A study of Mus musculus with 17 samples.

Results

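The adrenergic receptors Adra1a, Adra1b, Adrb1 and Adrb3, the adenylyl cyclases Adcy5 and Adcy6 and the muscarinic receptor Chrm2 were examined in the left ventricular apex of mice with and without pressure overload. The 7 genes were chosen by symbol with earlier results of these libraries known, so their own values are given as a description. Of the 7, 6 were analysed among the 21798 genes of the expression table, and Adrb3 was not analysed here. All mice were male C57Bl6/J, and the methods give an age of 7 to 8 weeks for the mice that went to surgery. Hearts were taken 3 weeks after transverse aortic constriction (TAC), in which the aorta is narrowed against a needle so that the left ventricle pumps against a raised pressure, or after Sham surgery. From 1 week after surgery, and over 2 weeks, the mice received 6 gavages of 29P, an oral prodrug that plasma converts to a cyclic peptide ligand of αvβ3 integrin, at 50 μg/kg, or of a matched volume of saline (Veh). There were 17 libraries, 5 Sham Veh, 3 Sham 29P, 6 TAC 29P and 3 TAC Veh, each from 1 mouse and named by its number (S1 to S20). The paper had left out other libraries for low read numbers, and a further TAC Veh library because it clustered with Sham mice.

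Noradrenaline from sympathetic nerves and adrenaline from the blood act on cardiac muscle cells through β and α1 receptors. The β1 receptor couples through the G protein Gs to adenylyl cyclase, which makes cyclic AMP, and the kinase that cyclic AMP activates phosphorylates channels and sarcomere proteins and so raises rate and force. The α1 receptors couple through Gq to phospholipase C, and M2, the main muscarinic receptor of the heart, couples through Gi to lower cyclic AMP and to open a potassium channel. In heart failure and hypertrophy this system is a textbook site of remodelling.

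The depth of a library, estimated from the step between its lowest values, was 14.2 to 23.8 M reads (median 20.45 M), and S14 (Sham 29P) was the shallowest. Ventricular muscle markers (5 of 5 measured) summed to 28010 to 43460 CPM, the unit of the expression table, in which the reads of a gene are scaled to the total of its library. Atrial markers (Sln, Myl4, Myl7 and Bmp10) summed to 1529 to 2543 CPM in 3 libraries, S18 (TAC 29P), S19 and S20 (both Sham Veh), and to 0.352 to 5.75 CPM in the other 14. Of these, Bmp10 was at 514 CPM in S18 and at 0.18 and 0 CPM in S19 and S20. S18, S19 and S20 are also the whole of 1 of 4 runs of animal numbers in the library names, so run and atrial signal cannot be told apart, and values that rest on these libraries are given with and without them. Genes encoded by the mitochondrial genome held 33.5 ± 3.64% (SD, n = 5) of a Sham Veh library and 26.1 ± 2.22% (SD, n = 3) of a TAC Veh library. With TMM factors (trimmed mean of M values) in place of scaling to totals, the median change of all genes (log2) between TAC Veh and Sham Veh moved from 0.34 to 0.01. Changes with TAC are therefore also read against the median of all genes. In bulk tissue, fewer cells of a type and less RNA per cell cannot be told apart.

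Levels were first compared between genes, per kilobase of exon, so that long transcripts do not rank higher only for their length. Adcy6, a calcium-inhibited cyclase of cardiac muscle, was the highest of the members with 19.8 ± 3.6 CPM per kb (SD, n = 17). It was followed by Chrm2 with 16.7 ± 4.99 CPM per kb (SD, n = 17), below Adcy6 in 14 of 17 libraries. Adcy5, the other calcium-inhibited cyclase, came next with 6.67 ± 1.48 CPM per kb (SD, n = 17), below Chrm2 in 17 of 17 libraries. Adrb1, which encodes the β1 receptor, had 4.36 ± 1.05 CPM per kb (SD, n = 17), and Adra1b, an α1 receptor, 4.04 ± 1.21 CPM per kb (SD, n = 17). Those neighbours did not separate, since Adrb1 was the higher in 9 of 17 libraries. Per mean transcript length in place of all exon bases they stood at 8.562 (Adrb1) and 4.885 (Adra1b) CPM per kb and Adrb1 was the higher in 16 of 17, so their order depends on the length used. Adra1a, the other α1 receptor of the list, was the lowest with 1.01 ± 0.31 CPM per kb (SD, n = 17), below Adra1b in 17 of 17 libraries.

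**Figure D1:**
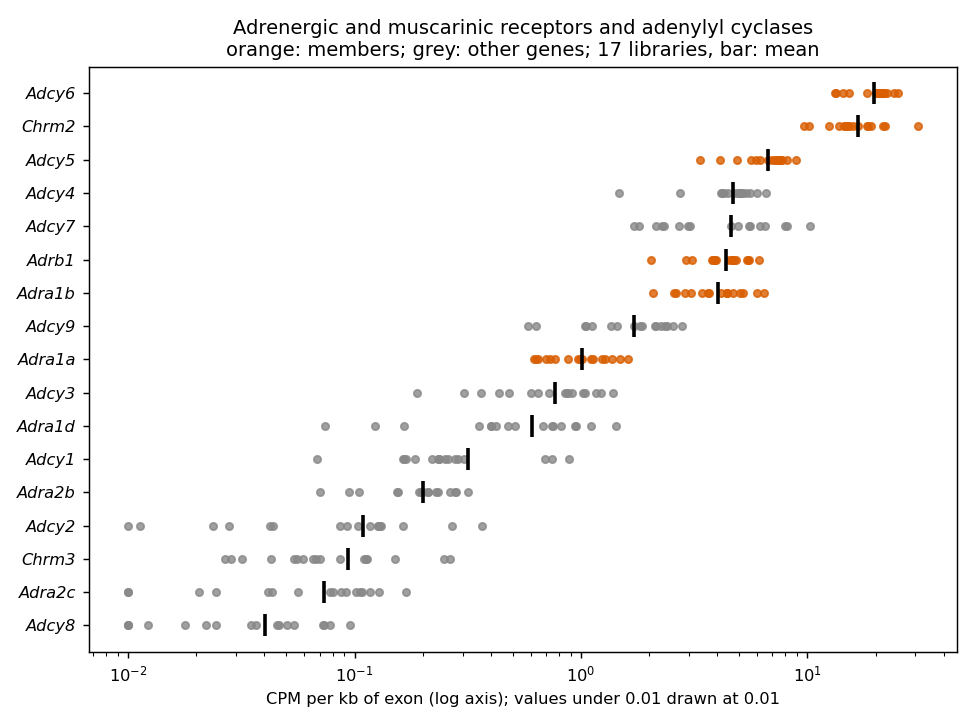
Level of receptors and cyclases in CPM per kb of exon (log axis), with 1 point per library and a bar at the mean of 17 libraries. Adcy6 and Chrm2 lie highest at means of 19.8 and 16.7 CPM per kb, and Adcy8 and Adra2c lowest.

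Other receptors and cyclases lay around and under the members. Among the cyclases, Adcy4 had 4.69 ± 1.17 CPM per kb and Adcy7 4.62 ± 2.56 CPM per kb (SD, n = 17), near the β1 receptor. Adcy9 had 1.72 CPM per kb, and Adcy3, Adcy1, Adcy2 and Adcy8 fell from 0.77 to 0.040 CPM per kb. Adra1d, the remaining α1 receptor, had 0.61 CPM per kb, Adra2b 0.20, Chrm3 0.093 and Adra2c 0.074 CPM per kb, and Adra2c was listed at 0 in 2 libraries and was too low to be tested.

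Adra1b lies on chromosome 11 of mm10, from 43774606 to 43901210 on the minus strand, and no other gene of the GENCODE vM21 annotation overlaps it. RefSeq (GRCm38.p6) gives the gene 2 starts, whose 250 upstream bases are shown because Adra1b is the member with 1 group (TAC Veh) below all other libraries. The window of Adrb1 (chromosome 19, 56722199 to 56733113, plus strand) is shown beside them. Capitals mark the GC box GGGCGG and the core TGACG of the cyclic AMP response element, each searched on both strands.
Adra1b outer start, chr11:43901238-43901487, minus strand: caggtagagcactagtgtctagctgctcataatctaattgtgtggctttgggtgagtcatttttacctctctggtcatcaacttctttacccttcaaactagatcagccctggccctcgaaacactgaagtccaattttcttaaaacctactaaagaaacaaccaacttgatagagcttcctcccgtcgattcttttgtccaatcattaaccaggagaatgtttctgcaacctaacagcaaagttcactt
Adra1b inner start, chr11:43836490-43836739, minus strand: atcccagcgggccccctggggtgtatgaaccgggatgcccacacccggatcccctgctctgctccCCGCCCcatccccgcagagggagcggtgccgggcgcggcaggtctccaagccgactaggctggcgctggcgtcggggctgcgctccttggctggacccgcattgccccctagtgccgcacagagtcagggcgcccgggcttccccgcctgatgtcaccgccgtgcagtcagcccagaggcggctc
Adrb1, chr19:56721867-56722116, plus strand: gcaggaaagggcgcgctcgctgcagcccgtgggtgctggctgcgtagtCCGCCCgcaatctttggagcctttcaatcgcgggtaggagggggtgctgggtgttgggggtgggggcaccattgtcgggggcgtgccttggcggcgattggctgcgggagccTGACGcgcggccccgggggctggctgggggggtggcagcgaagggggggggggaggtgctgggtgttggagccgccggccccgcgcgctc

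The outer Adra1b window holds neither motif, and the inner holds 1 GC box. The Adrb1 window holds 1 GC box and 1 such core. Windows were also read for Adcy5, with 4 GC boxes, and for Chrm2, with 1, and neither held the core. Of 32851 such windows over all genes, 32.7% hold a GC box and 17.8% the core. The full site TGACGTCA, which contains the core, was in none of the 5 member windows and in 1.55% of all windows, and the GATA motif AGATAA was in none of the 5 and in 9.99% of all. These are matches of letters, not binding sites.

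The α1 receptor Adra1b was lower in TAC Veh than in every other of the 17 libraries. It was at 8.68, 8.90 and 7.04 CPM in the 3 TAC Veh libraries. In the 5 Sham Veh libraries it ran from 10.4 to 20.2 CPM with a median of 14.9. In the 6 TAC 29P libraries it ran from 12.3 to 16.99 CPM with a median of 14.96, and in the 3 Sham 29P libraries it was at 21.7, 9.73 and 12.4 CPM. Thus TAC Veh overlapped no other group, while the Sham Veh, Sham 29P and TAC 29P groups overlapped each other. The TAC Veh library that the paper left out for clustering with Sham mice is not among these values. TAC Veh averaged 8.21 ± 1.02 CPM (SD, n = 3), Sham Veh averaged 14.9 ± 4.09 CPM (SD, n = 5), Sham 29P averaged 14.6 ± 6.26 CPM (SD, n = 3) and TAC 29P averaged 14.9 ± 1.58 CPM (SD, n = 6). The log2 fold change was −0.82 (standard error 0.23) for TAC Veh against Sham Veh and 0.85 (standard error 0.22) for TAC 29P against TAC Veh. Both differences use the same 3 TAC Veh libraries and are not independent. For TAC 29P against Sham 29P it was 0.10 (standard error 0.22), and −0.24 with TMM factors. That value was −0.15 without S14, 0.42 without S4, and −0.55 within the run S1 to S11 (5 libraries against 1), so its direction was not stable. Within Sham, 29P against Veh gave −0.07 (standard error 0.23).

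The direction of both Adra1b differences held under every alternative that was run, and the size varied. With TMM factors the change with TAC in Veh mice was −1.15 (standard error 0.19), and over the 17 fits that each left out 1 library it lay between −0.94 and −0.70. Without S18, S19 and S20 it was −0.77 (standard error 0.25). The difference of TAC 29P from TAC Veh lay between 0.74 and 0.91 over the same 17 fits. In the run S1 to S11, the run with both TAC groups, it was 0.76 for 5 TAC 29P libraries against 1 TAC Veh library. With the run added to the model it was 0.62 (standard error 0.27), and the change with TAC in Veh mice was −0.63 (standard error 0.27). The change with TAC within the run S1 to S11 was −0.63, and within the run S12 to S14 it was −0.74. Within Sham the effect of 29P went opposite ways in these runs, 0.68 and −0.61.

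**Figure D2:**
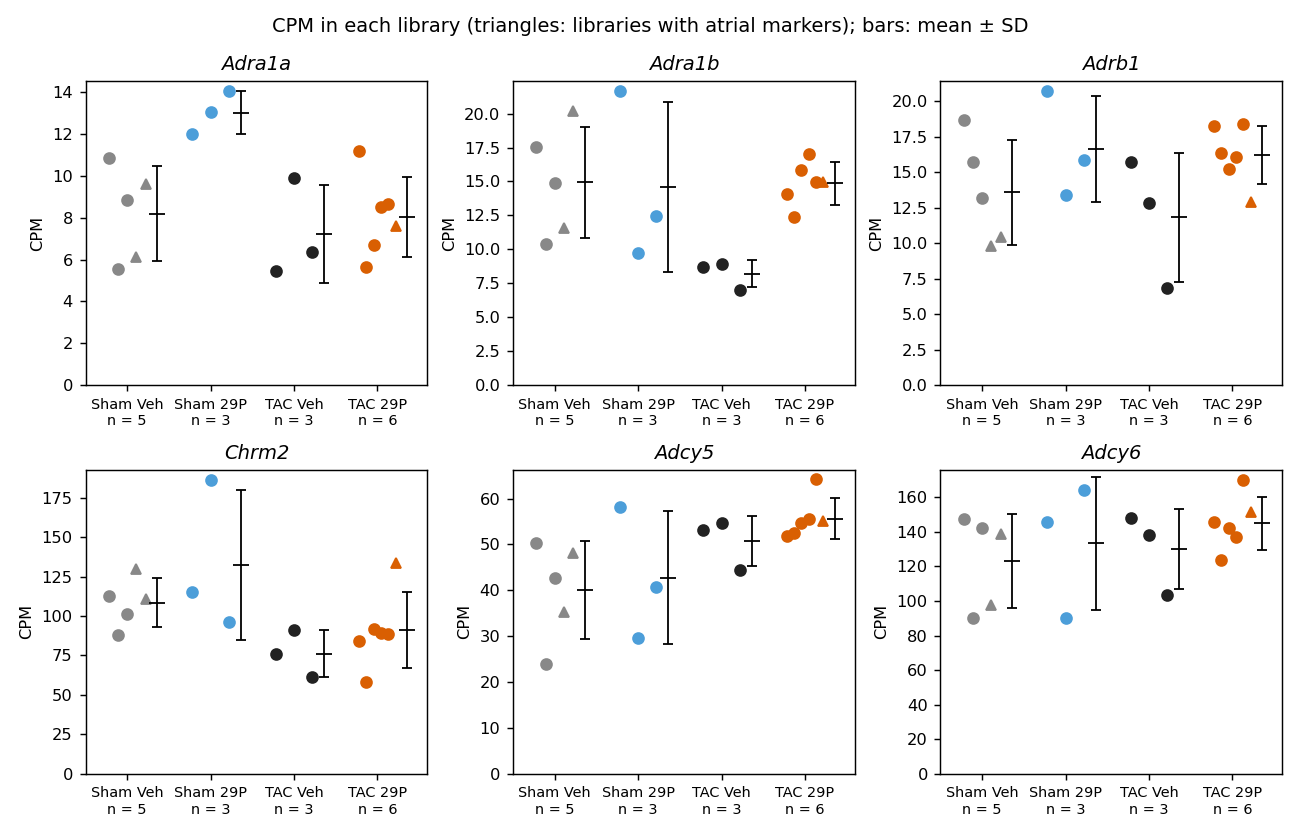
CPM of the 6 members in each of the 17 libraries by group, with triangles for the 3 libraries with atrial markers and bars for the mean and SD. The 3 TAC Veh libraries lie at 7.04 to 8.90 CPM of Adra1b, below the other 14, and the 3 Sham 29P libraries at 11.99 to 14.1 CPM of Adra1a, above the other 14.

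Adra1a, on chromosome 14 from 66635251 to 66771168 (plus strand, no overlapping gene), stood apart in another group. It was at 11.99, 13.04 and 14.1 CPM in the 3 Sham 29P libraries, above all others. The 5 Sham Veh libraries ran from 5.55 to 10.9 CPM with a median of 8.84. The TAC Veh libraries were at 5.44, 9.88 and 6.34 CPM, and the 6 TAC 29P libraries ran from 5.63 to 11.2 CPM with a median of 8.05. The 3 groups other than Sham 29P overlapped. For Sham 29P against Sham Veh the log2 fold change was 0.71 (standard error 0.25), and for TAC 29P against Sham 29P it was −0.72 (standard error 0.24). The 3 Sham 29P libraries enter both. TAC Veh differed from Sham Veh by −0.18 (standard error 0.25), or −0.51 (standard error 0.24) with TMM factors, and TAC 29P from TAC Veh by 0.17 (standard error 0.24). With 1 library left out these ranged from −0.43 (without S12) to −0.003 (without S2) and from −0.01 (without S2) to 0.41 (without S12), and the second was 0.34 with the run as a covariate. The Sham 29P difference was 0.62 within the run S1 to S11 and 0.56 within the run S12 to S14.

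The balance of the α1 receptors within a library does not depend on how libraries are scaled. Per kb of exon, the ratio of Adra1a to Adra1b averaged 0.213 in Sham Veh (SD 0.022, n = 5), 0.211 in TAC 29P (SD 0.052, n = 6), 0.341 in TAC Veh (SD 0.094, n = 3) and 0.391 in Sham 29P (SD 0.158, n = 3). Sham Veh spanned 0.185 to 0.24 and TAC Veh 0.243 to 0.43, so that pair of groups did not overlap, while TAC 29P (0.164 to 0.308) overlapped both. The Sham 29P libraries spanned 0.214 to 0.519 and overlapped every other group.

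Adrb1, the β1 receptor gene, showed no group apart from the others. It was at 15.8, 12.9 and 6.88 CPM in the TAC Veh libraries, where S16 was the lowest of all 17. The Sham Veh libraries ran from 9.83 to 18.7 CPM with a median of 13.2, and their lowest were S19 and S20, at 9.83 and 10.4 CPM. The Sham 29P libraries were at 20.8, 13.4 and 15.9 CPM, and the TAC 29P libraries ran from 12.9 (S18) to 18.4 CPM with a median of 16.2. All 4 groups overlapped. The log2 fold change of TAC Veh against Sham Veh was −0.24 (standard error 0.24), with TMM factors −0.57 (standard error 0.23). It was 0.11 without S16 and −0.49 (standard error 0.25) without S18, S19 and S20. TAC 29P against TAC Veh gave 0.52 (standard error 0.24), which was 0.18 without S16 and 0.24 with the run as a covariate. TAC 29P against Sham 29P gave −0.03 (standard error 0.24), or −0.36 with TMM factors, and Sham 29P against Sham Veh gave 0.31 (standard error 0.24), which was 0.06 without S18, S19 and S20.

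Chrm2, on chromosome 6 from 36388084 to 36528414 (plus strand), encodes the M2 receptor, and in this annotation it overlaps the lincRNA 9330158H04Rik on the other strand and the miRNA gene Mir490. Because the strand setting of the counting is not stated, reads of the lincRNA cannot be told apart. The TAC Veh libraries were at 75.8, 91.3 and 61.4 CPM. The Sham Veh libraries ran from 87.8 to 130 CPM with a median of 111, and the Sham 29P libraries were at 115, 186 and 96.0 CPM. The TAC 29P libraries ran from 58.4 to 134 CPM with a median of 88.9. The TAC Veh and Sham Veh groups overlapped by the pair of S12 (91.3) and S6 (87.8). The lone TAC 29P library above 92.1 CPM was S18, 1 of those with atrial markers, while the highest value of all, 186 CPM, was in S14, where the atrial markers summed to 0.352 CPM. The log2 fold change was −0.52 (standard error 0.22) for TAC Veh against Sham Veh and −0.53 (standard error 0.22) for TAC 29P against Sham 29P. With TMM factors these were −0.85 (standard error 0.24) and −0.86 (standard error 0.24). Without S18, S19 and S20 they were −0.41 (standard error 0.23) and −0.64 (standard error 0.20), and without S14 the latter was −0.25. Within TAC, 29P against Veh gave 0.23 (standard error 0.22), and 0.11 without S18, S19 and S20. Within Sham it gave 0.24 (standard error 0.22), and −0.03 without S14. With the run as a covariate TAC Veh differed from Sham Veh by −0.24 (standard error 0.19) and Sham 29P from Sham Veh by 0.52 (standard error 0.19).

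Adcy5 and Adcy6 make the cyclic AMP that follows β1 receptor signalling. Adcy5 lies on chromosome 16 from 35154877 to 35305738 (plus strand), where the annotation also places the snRNA Gm25179 and Gm49702. Adcy5 was at 53.1, 54.6 and 44.5 CPM in TAC Veh, and ran from 51.8 to 64.3 CPM with a median of 54.8 in TAC 29P. In Sham Veh it ran from 24.0 to 50.3 CPM with a median of 42.6, and in Sham 29P it was at 58.1, 29.5 and 40.6 CPM. The 6 TAC 29P libraries lay in a narrow range, and the lowest values of all were in S6 (Sham Veh) and S14 (Sham 29P), which also had the highest mitochondrial-encoded shares, 38.8 and 40.0%. The log2 fold change was 0.38 (standard error 0.21) for TAC Veh against Sham Veh and 0.43 (standard error 0.20) for TAC 29P against Sham 29P, close to the median of all genes in those comparisons, 0.34 and 0.36. With TMM factors they were 0.05 (standard error 0.16) and 0.09 (standard error 0.16). Without S6 the first was 0.21, and without S14 the second was 0.19. Between 29P and Veh Adcy5 differed by 0.13 (standard error 0.20) within TAC and by 0.09 (standard error 0.21) within Sham, the latter from −0.16 (without S4) to 0.33 (without S14).

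Adcy6 lies on chromosome 15 from 98589973 to 98610076 (minus strand), with the antisense gene Gm29331 over it. Because the strand setting of the counting is not stated, the reads of the pair cannot be told apart. Adcy6 was at 148, 138 and 104 CPM in TAC Veh and ran from 124 to 170 CPM with a median of 144 in TAC 29P. In Sham Veh it ran from 90.0 to 148 CPM with a median of 139, and in Sham 29P it was at 146, 90.4 and 164 CPM. Here too S6 and S14 were the lowest, and all groups overlapped. The log2 fold change was 0.09 (standard error 0.19) for TAC Veh against Sham Veh, 0.16 (standard error 0.19) for TAC 29P against Sham 29P, 0.17 (standard error 0.19) for TAC 29P against TAC Veh and 0.10 (standard error 0.19) within Sham. With TMM factors the changes with TAC turned to −0.24 (standard error 0.16) and −0.18 (standard error 0.15). The 95% interval for TAC Veh against Sham Veh was −0.32 to 0.50 scaled to totals and −0.57 to 0.09 with TMM factors. Without S16 the difference of TAC 29P from TAC Veh was 0.014, and the Sham difference turned to −0.07 without S15 and was 0.36 without S14.

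Within a library the ratio of Adcy6 to Adcy5, per kb of exon, averaged 3.32 for 5 Sham Veh libraries (SD 0.43) and 3.39 for 3 Sham 29P libraries (SD 0.82). After TAC it averaged 2.70 in Veh mice (SD 0.24, n = 3) and 2.76 in 29P mice (SD 0.18, n = 6). TAC Veh spanned 2.47 to 2.95 and Sham Veh 2.94 to 3.96, which overlap at that edge. The ratio of Adrb1 to Chrm2, the β1 over the M2 receptor, averaged 0.231 (SD 0.080) over the 5 Sham Veh libraries, 0.249 (SD 0.105) over the 3 Sham 29P, 0.275 (SD 0.088) over the 3 TAC Veh and 0.343 (SD 0.109) over the 6 TAC 29P libraries, with overlap between all groups.

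Counted over the members, TAC Veh against Sham Veh passed an adjusted p of 0.05 for 1 of 6 (Adra1b, lower), where 1.98% of all 16218 genes tested were called lower and 23.6% higher. For TAC 29P against Sham 29P it was again 1 of 6 (Adra1a, lower), where 1.15% of all genes were called lower and 31.5% higher. In neither 29P comparison was a member called, and 0% of all genes were. Adra1b was the 1 member without overlap between TAC Veh and Sham Veh (2.23% of all genes were lower in this way) and between TAC 29P and TAC Veh (0.839% of all genes were higher). Adra1a was the 1 member without overlap between Sham 29P and Sham Veh (0.629% of all genes were higher) and between TAC 29P and Sham 29P (1.08% were lower). The call of Adra1b was lost without S2, S16 or the trio of S18, S19 and S20, and that of Adra1a without S3, S8, S14 or S15, and both with the run as a covariate. With TMM factors Chrm2 was called lower in both TAC comparisons beside them. Scaled to totals without S18, S19 and S20, Chrm2 was also called lower between TAC 29P and Sham 29P, but not between TAC Veh and Sham Veh. The members were chosen on these comparisons, so nothing is read from the counts. The median change of the 6 members with TAC in Veh mice was −0.21, beside 0.34 over all genes, and with TMM factors −0.54, beside 0.01. The effect of 29P was also compared between TAC and Sham: for Adra1b it differed by 0.92 (standard error 0.32) on the log2 scale, for Adra1a by −0.54 (standard error 0.34), and for the other 4 by −0.01 to 0.21. With the run as a covariate it was 0.50 (standard error 0.42) for Adra1b and −0.27 (standard error 0.45) for Adra1a, and without S18, S19 and S20 it was 0.53 for Adrb1 and −0.23 for Chrm2.

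**Figure D3:**
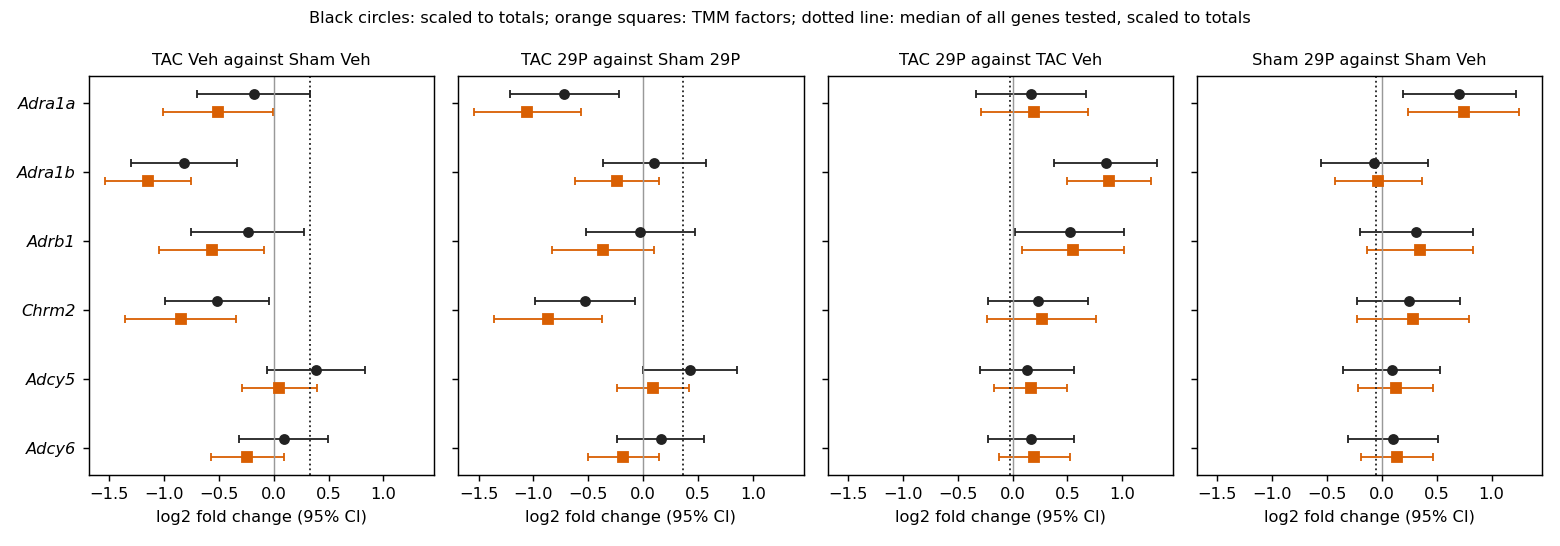
Log2 fold change of each member in 4 comparisons with its 95% interval, from values scaled to totals (black circles) and with TMM factors (orange squares), and the median of all genes as a dotted line. The TAC comparisons shift to lower values with TMM factors, Adra1b from −0.82 to −1.15, and the 29P comparisons hardly move.

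The other genes of the pathway were taken from a list of 99 receptors, transmitter enzymes, G proteins, cyclases, kinases and effectors, of which 91 have a row and 87 passed the filter on low values. Between TAC Veh and Sham Veh mice 24 of the 87 rose and 6 fell at an adjusted p of 0.05 (limma), with a median log2 fold change of 0.38 beside 0.34 over all genes. Of all genes tested, 23.6% were called higher and 1.98% lower. With TMM factors 8 rose and 11 fell, where 4.33% of all genes were called higher and 5.81% lower. Without S2, 1 of 3 TAC Veh libraries, 6 were called higher and 0 lower. The 6 genes called lower with all libraries kept that direction without S2, at −1.48 (Kcnj3) to −0.49 (Tnni3), and S12 and S16 were also below every Sham Veh library for Kcnj3, Dbh, Maob and Tnni3. Of the genes named below as rising, Adcy7, Arrb1, Prkar1a and Akap13 were also called without S2. Adcy3, Arrb2, Grk5, Prkcd, Gnao1 and Gnai2 were not, with values of 0.59 (Gnai2) to 1.03 (Adcy3).

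The receptors Adra1d, Adra2b and Chrm3 were not called with TAC in Veh mice. On the log2 scale Adra1d differed by 0.43 (standard error 0.60), Adra2b by 0.59 (standard error 0.38) and Chrm3 by −0.96 (standard error 0.51). Of the 7 other cyclases 2 rose, beside 23.6% of all genes tested. Adcy7, a cyclase found in many cell types and in blood cells, rose 3.12-fold (1.64 on the log2 scale, limma adjusted p = 0.00041), from 14.4 to 20.3 CPM in Sham Veh to 37.3 to 68.9 CPM in TAC Veh. Adcy3 rose 2.302-fold (1.20 on the log2 scale, limma adjusted p = 0.0154), and stood at 1.06 without S18, S19 and S20 (limma adjusted p = 0.0644). With TMM factors the log2 fold changes were 1.31 and 0.88, with limma adjusted p = 0.000512 and 0.0499. Adcy4 had 0.50 (standard error 0.28) and Adcy9 0.71 (standard error 0.39), neither past the threshold. Macrophage markers (4 of 4 measured) summed to 62.6 to 91.9 CPM in Sham Veh and 126 to 211 CPM in TAC Veh, and fibroblast markers (4 of 4) to 542 to 959 CPM and 1018 to 1314 CPM, endothelial markers (4 of 4) to 461 to 789 CPM and 757 to 980 CPM, and red blood cell markers (4 of 4) to 1009 to 2438 CPM and 3052 to 4933 CPM, while ventricular muscle markers overlapped. Their part in the rise of these cyclases was not tested.

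Downstream of the receptors, 5 of 13 G protein subunits rose and none fell, among them Gnao1 (encoding Gαo) by 0.85 (standard error 0.25, limma adjusted p = 0.0241) and Gnai2 (Gαi2, which inhibits cyclases) by 0.68 (standard error 0.18, limma adjusted p = 0.0145). Gnas, encoding Gαs, was not called. With TMM factors 1 of the 13 was called higher. Of all genes tested, 23.6% were called higher and 1.98% lower, and with TMM factors 4.33% were called higher. Of 14 receptor kinases, arrestins and RGS proteins 5 rose and 1 fell. With TMM factors 2 rose and 1 fell, where 4.33% of all genes were called higher and 5.81% lower. Arrb1 (β-arrestin 1), which uncouples phosphorylated receptors, rose by 1.05 (standard error 0.19, limma adjusted p = 0.0023), and Arrb2 by 0.89 (standard error 0.23, limma adjusted p = 0.0137). With TMM factors Arrb2 stood at 0.56 and was not called (limma adjusted p = 0.0676). Grk5, a kinase that phosphorylates active receptors, rose by 0.94 (standard error 0.19, limma adjusted p = 0.00469), from 32.2 to 37.5 CPM in Sham Veh to 46.6 to 81.4 CPM in TAC Veh. Rgs2, which speeds the switching off of Gq, fell by 0.99 on the log2 scale (limma adjusted p = 0.0155), and by 0.61 without S18, S19 and S20 (limma adjusted p = 0.0749).

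Of 18 cyclic AMP effectors and anchoring proteins 4 rose, a count near the share of all genes called higher, 23.6%. With TMM factors 2 rose and 1 fell, where 4.33% of all genes were called higher and 5.81% lower. Prkar1a, a regulatory subunit of protein kinase A, rose by 0.91 (standard error 0.13, limma adjusted p = 0.00082) and Akap13, an anchoring protein for that kinase, by 0.86 (standard error 0.15, limma adjusted p = 0.0018). Of 9 substrates of protein kinase A 1 rose and 1 fell, and with TMM factors 0 rose and 4 fell, also the counts between TAC 29P and Sham 29P with these factors. With these factors 5.81% of all genes were called lower between TAC Veh and Sham Veh, and 4.72% between TAC 29P and Sham 29P. Tnni3, cardiac troponin I, fell by 0.54 on the log2 scale (limma adjusted p = 0.0152), and by 0.51 without S18, S19 and S20 (limma adjusted p = 0.0539). Of 10 α1 receptor effectors 6 rose and none fell, led by Prkcd, protein kinase C delta, at 0.87 (standard error 0.18, limma adjusted p = 0.00496). With TMM factors 1 of these 10 was called higher, beside 4.33% of all genes.

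Both potassium channel subunits that M2 receptors open through G protein βγ subunits fell. Kcnj3 was at 16.6, 32.3 and 22.5 CPM in TAC Veh. In Sham Veh it ran from 48.0 to 158 CPM with a median of 55.6. All Sham Veh libraries were above all TAC Veh libraries, and its 3 highest values of all were in S18, S19 and S20, the libraries with atrial markers, at 115 to 158 CPM. It fell by 1.71 on the log2 scale (standard error 0.49, limma adjusted p = 0.0208), and without those 3 libraries by 1.15 (standard error 0.28, limma adjusted p = 0.0189). Kcnj5 fell by 0.72 on the log2 scale (standard error 0.25, limma adjusted p = 0.0412), and without the 3 libraries its value was −0.49 (standard error 0.24, limma adjusted p = 0.147), past no threshold.

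**Figure D4:**
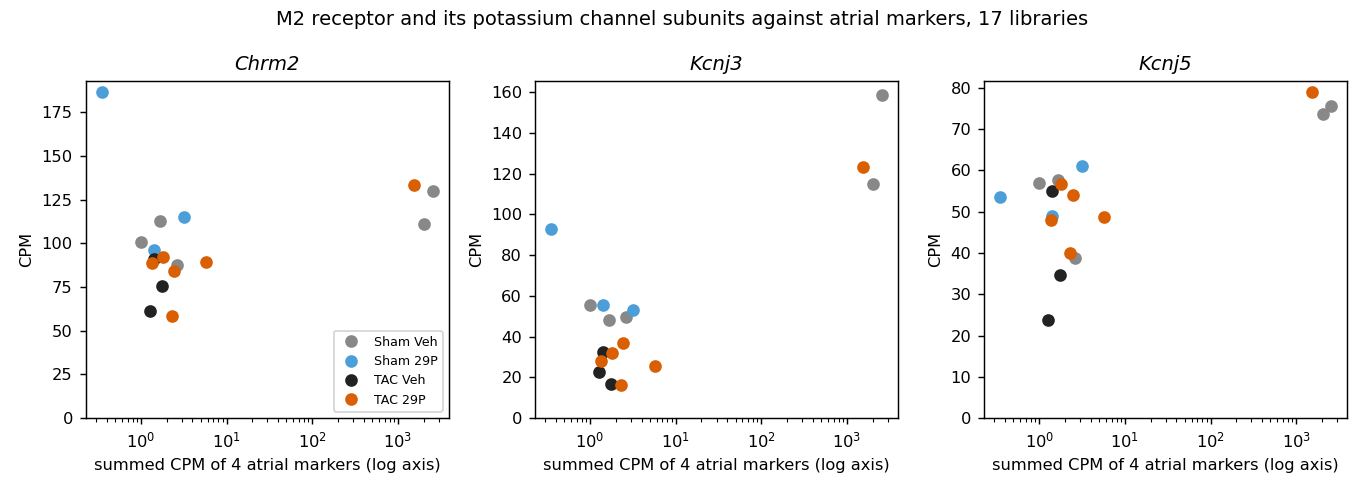
CPM of Chrm2, Kcnj3 and Kcnj5 against the summed CPM of 4 atrial markers (log axis) in 17 libraries, coloured by group. The 3 libraries at 1529 to 2543 CPM of atrial markers hold the highest Kcnj3 values, 115 to 158 CPM, while the highest Chrm2 value, 186 CPM, is in the library with the lowest marker sum.

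Of 8 tested genes of catecholamine synthesis, uptake and breakdown 1 rose and 2 fell, where 23.6% of all genes rose and 1.98% fell. With TMM factors 0 rose and 3 fell, where 4.33% of all genes were called higher and 5.81% lower. Maob, a mitochondrial monoamine oxidase, fell by 0.78 on the log2 scale (standard error 0.21, limma adjusted p = 0.0161), from 29.9 to 42.3 CPM in Sham Veh to 16.8 to 22.2 CPM in TAC Veh. Without S18, S19 and S20 it fell by 0.61 (limma adjusted p = 0.0244). Dbh, which makes noradrenaline from dopamine, fell by 1.04 on the log2 scale (standard error 0.35, limma adjusted p = 0.0376) from a low level, 0.999 to 2.14 CPM in Sham Veh to 0.499 to 0.929 CPM in TAC Veh. It stood at −1.21 without S18, S19 and S20 (limma adjusted p = 0.0409) and at −0.91 with the run as a covariate (limma adjusted p = 0.113). Peripheral neuron markers (3 of 4 measured) summed to 4.28 to 6.19 CPM in Sham Veh and 10.52 to 14.9 CPM in TAC Veh. In each TAC Veh library Snap25 was listed at 0, and Uchl1 made up 10.3 to 14.8 CPM of the sum. In Sham Veh Snap25 was at 0.089 CPM in S19 and 0.0999 CPM in S20. The part of these markers was not tested.

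**Figure D5:**
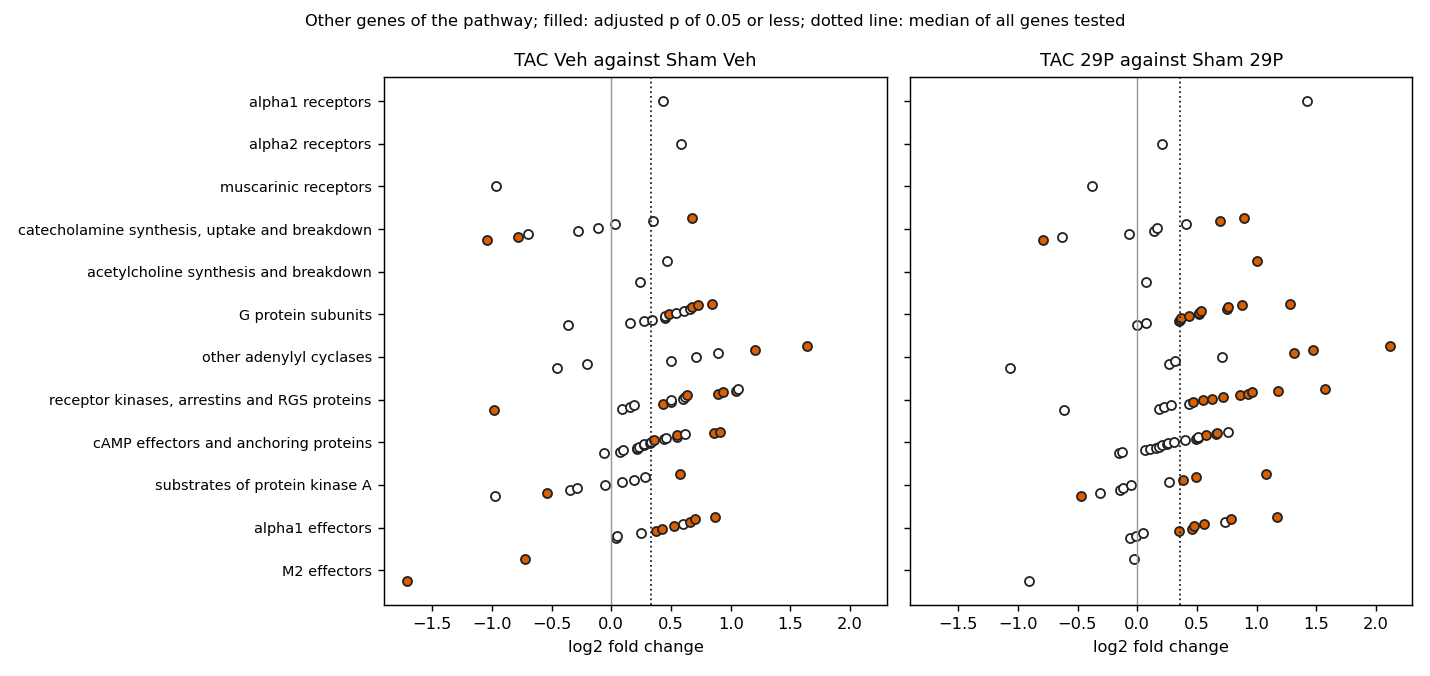
Log2 fold change of tested pathway genes by role for TAC Veh against Sham Veh and for TAC 29P against Sham 29P, with filled points for called genes and the median of all genes as a dotted line. In Veh mice 24 of 87 genes are filled on the higher side and 6 on the lower, and both M2 effectors are filled at −1.71 and −0.72.

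Between TAC 29P and Sham 29P mice 37 of the 87 pathway genes rose and 2 fell (limma, adjusted p of 0.05), with a median of 0.40 beside 0.36 over all genes. Of all genes tested, 31.5% were called higher and 1.15% lower. With TMM factors 10 rose and 8 fell, where 6.37% of all genes were called higher and 4.72% lower. Without S14, the shallowest library, 11 rose and 1 fell, and with the run as a covariate 8 rose and 2 fell. Of the genes called in the Veh comparison, 21 of the 24 that rose and 1 of the 6 that fell were called the same way here, out of 37 and 2. The share of all genes called in both comparisons was not computed, so nothing about the pathway is read from this overlap. Adcy7 rose by 1.47 (standard error 0.21, limma adjusted p = 0.000728), Adcy3 by 1.32 (standard error 0.31, limma adjusted p = 0.00755) and Adcy2, at a low level (0.10 CPM in Sham 29P and 0.78 CPM in TAC 29P), by 2.11 (standard error 0.52, limma adjusted p = 0.00879). Without S14 Adcy3 had 0.82 (limma adjusted p = 0.0767).

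Gnao1 rose by 1.28 (standard error 0.25, limma adjusted p = 0.00288), Grk5 by 1.18 (standard error 0.19, limma adjusted p = 0.00122), Prkcd by 1.17 (standard error 0.18, limma adjusted p = 0.000829) and Arrb1 by 0.96 (standard error 0.19, limma adjusted p = 0.00288). Without S18, S19 and S20 Gnao1 stood at 1.16 (limma adjusted p = 0.000335). Rrad, a small G protein that restrains calcium channels, rose by 1.08 (limma adjusted p = 0.0375) and Ache, acetylcholinesterase, by 1.01 (limma adjusted p = 0.0319). Both lost the call without S14, with limma adjusted p = 0.278 and 0.252, and with TMM factors. Maob fell by 0.79 on the log2 scale (standard error 0.20, limma adjusted p = 0.0112). Pln, phospholamban, fell by 0.47 (standard error 0.13, limma adjusted p = 0.0135), and without S14 its value was −0.33 (limma adjusted p = 0.115). These receptors were again not called, with Adra1d at 1.42 (standard error 0.58, limma adjusted p = 0.0656). Kcnj3 and Kcnj5 were not called in this comparison.

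With 29P within TAC, limma called 0 of 87 pathway genes and 0% of all genes, and the smallest adjusted p over all genes was 0.959. That smallest value depended on the fit. It was 0.0727 with the compared groups alone, 0.152 without S14, 0.331 with the run as a covariate and 0.679 with TMM factors. In each of these fits 0 genes were called. At an unadjusted p of 0.05, 4 of the 87 were higher and 2 lower, where 0.95% of all genes were higher and 1.11% lower. Those 6, named after their values were seen, were Ddc (0.65), Dbh (0.75), Kcnj5 (0.58) and Ppp1r1a (0.73) on the higher side and Plcb4 (−0.28) and Prkar1a (−0.29) on the lower, as log2 fold changes. Within Sham, limma again called 0 of 87. There 2 were higher (Cacna1c, 0.46, and Pln, 0.30) and 4 lower (among them Ache, −0.75, Fxyd1, −0.28, and Popdc3, −0.33) at an unadjusted p of 0.05, where 1.57% of all genes were higher and 5.15% lower. Without S14, 1 was higher and 1 lower, with Pln at 0.16, Ache at −0.34 and Fxyd1 at −0.10. For the difference of the 29P effect between TAC and Sham, 0 of 87 were called, and 3 were higher and 1 lower at an unadjusted p of 0.05, beside 1.92% and 0.937% of all genes.

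The genes whose values ran most like each member over the 17 libraries were found by Pearson's r of log2 values among 14054 genes with a mean CPM of at least 1. For Adcy5 they were Jph2, Cdk16 and Hmgxb3, with r of 0.97, 0.97 and 0.97. Adcy6 ran most like Calcoco1 (r of 0.95), Sec31b (0.93) and Sema4b (0.92). Chrm2 ran most like Ghr (0.93), Slf1 (0.92) and Dsc2 (0.92), with 0.93, 0.97 and 0.91 over the 14 libraries without atrial markers. For Adra1b they were Whrn (0.90), Hhatl (0.89) and Fitm2 (0.87), for Adrb1 Ppp1r3d (0.90), Sox6 (0.90) and Smim5 (0.89), and for Adra1a Asb15 (0.89), Mylk4 (0.86) and Nceh1 (0.85). These are the highest of many values over libraries that share their groups and the scaling to totals, and they are given as a description.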

How the data were processed

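Bulk RNA-sequencing of 17 left ventricular apices, 1 library per mouse, was analysed. Per the submitters' processing notes, STAR 2.3.7 and Partek with the mm10 build were used, and the authors deposited CPM values with 0.0001 added to each. The counter and the strand setting of the counting are not given in the sources used here. The supplementary methods list a strand specificity reagent in the library preparation. As 78.8 to 81.8% of low values were whole multiples of a library's step (tolerance 0.02 of a step), read counts were not restored. Log2(deposited CPM + 0.1) of the 16218 genes with a CPM of at least 0.5 in at least 3 libraries was fitted with limma 3.58.1 (R 4.3.3; 1 mean per group, trended variance, two-sided, 13 residual degrees of freedom), and genes were called at a Benjamini-Hochberg adjusted p of 0.05 or less over all genes. Log2 fold changes are on that scale. The fit was tested on simulated data with known changes in TAC Veh against Sham Veh. With 200 of the 16218 genes changed, it called 52.3% of 2-fold and 12.3% of 1.41-fold changes, so a gene that was not called may still differ. These rates hold for that number of changed genes, and the other comparisons were not simulated. The members and lists were chosen with earlier results of these data known. Pathway genes named were those called with a mean CPM of at least 1, up to 8 each way, and the receptors and cyclases of the list. Exon lengths and positions come from GENCODE vM21, while the paper names another Gencode release for its annotation. Other settings were TMM factors (with 30% of log ratios and 5% of levels trimmed), median-of-ratios factors, totals without the 16 mitochondrial-encoded genes, other constants and filters, an unadjusted p, a fit of the compared groups alone, a term for the run of animal numbers, and a fit without each library in turn. Leaving out S18, S19 and S20 was added after seeing the data. The p-values measure the spread between mice. Other assays of the study were not analysed here. Some genes of the lists are counted but not reported here by name.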

Additional observations from a re-analysis of the deposited data

Results flagged for a closer look

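In 33 genes, the values of the 5 Sham Veh and the 6 TAC 29P libraries were searched for a library far from the others, and 5 of 66 groups of values held one, where chance flags about 1 in 20. Adcy5 was highest in the TAC 29P library S11 at 64.3 CPM, with the other 5 between 51.8 and 55.5 CPM, a gap of 0.678 of the range of log2 values. Adra1d, the α1D receptor, was highest in the Sham Veh library S5 at 1.43 CPM, with the others between 0.67 and 0.80 CPM (0.774 of the range). In the same library Grk5 was highest at 37.5 CPM, with the others between 32.2 and 33.4 CPM (0.766 of the range). In the TAC 29P library S18, which holds atrial markers, Gnao1 was highest at 61.5 CPM against 31.9 to 40.2 CPM (0.646 of the range) and Rrad lowest at 79.2 CPM against 151 to 223 CPM (0.626 of the range). None of these differences was tested further.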

How the results depend on the processing

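No paired analysis was possible because each library came from a different mouse, with 1 surgery and 1 treatment. The runs of animal numbers that groups share were fitted as a term instead. Of the 87 tested pathway genes, 24 were called higher and 6 lower between TAC Veh and Sham Veh. With TMM factors these counts were 8 and 11, with median-of-ratios factors 8 and 10, and with totals without mitochondrial-encoded genes 15 were higher. At an unadjusted p 37 were higher, with a term for the run 3 were lower, without S18, S19 and S20 3 were lower, and with TMM factors without these libraries 6 were higher. Over the fits that each left out 1 library, 6 (without S2) to 32 (without S14) were higher and 0 (without S2) to 8 (without S14) lower, with 2 lower without S16. Between TAC 29P and Sham 29P, 37 were higher and 2 lower. With TMM factors, and with median-of-ratios factors, these counts were 10 and 8, with totals without mitochondrial-encoded genes 15 and 5, and with TMM factors without S18, S19 and S20 12 and 9. With a term for the run 8 were higher, at an unadjusted p 4 were lower, and without S18, S19 and S20 5 were lower. Over the fits without 1 library, 11 (without S14) to 39 (without S6) were higher and 1 (without S14) to 5 (without S18) lower, with 24 higher without S15. At an unadjusted p, 4 were higher and 2 lower with 29P within TAC, 2 and 4 within Sham, and 3 and 1 in the difference between them. Direction was checked for the members and for the called pathway genes with the largest changes, up to 8 each way. Among these no called change turned its direction. Per mean transcript length in place of all exon bases, levels were 48.25 CPM per kb for Adcy6, 31.65 for Chrm2, 12.98 for Adcy5, 8.562 for Adrb1, 4.885 for Adra1b and 2.485 for Adra1a. The groups of 3 mice limit the precision, and the cause of these shifts was not tested.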
